A study of Homo sapiens with 6 samples.

Results

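The forkhead (FOX) and SOX genes encode 2 large families of DNA-binding transcription factors, and their transcript levels were examined in OVCAR3 cells, an established line of high-grade serous ovarian adenocarcinoma, with and without THZ531. The members were taken by symbol, as FOX with a letter from A to S and a number, or SOX and a number. This gave 62 of the 47577 loci in the expression table, 44 forkhead and 18 SOX genes, and none of them sat on a locus that joins several symbols. A value of at least 10 normalized reads in at least 3 of the 6 libraries was reached by 43 of the 62 genes, 32 forkhead and 11 SOX genes, and these are called expressed below. The labels name no genetic change in these cells, and polyA RNA was sequenced from 3 libraries of cells given the solvent DMSO for 6 h and 3 libraries of cells given 200 nM THZ531, a covalent inhibitor of the transcriptional kinases CDK12 and CDK13, for 6 h. The sample titles name THZ531, whereas the treatment field gives THZ1, a relative of it, also at 200 nM, and libraries were assigned by their titles. A single line gives no measure of differences between tumours, and the p-values measure the spread between these libraries, which may be technical.

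Forkhead factors bind DNA through a winged-helix domain and SOX factors through an HMG box that bends the double helix. Members of both families set cell identity in development, and several are active again in carcinomas. The FOXO branch is controlled after translation: AKT and SGK kinases phosphorylate FOXO proteins, 14-3-3 proteins hold them in the cytoplasm, and the unphosphorylated proteins switch on genes of cell-cycle arrest, stress resistance and cell death. SOX proteins usually act with partners such as POU factors, and several of them bind or oppose β-catenin and its TCF/LEF partners. CDK12 and CDK13 phosphorylate RNA polymerase II, and their inhibition is known to favour the use of polyadenylation sites within introns of long genes, whereas many forkhead and SOX genes are short and have a single exon.

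The question was which members of these families changed in the treated cells. Calls of higher or lower required both a 1.5-fold difference and a limma p of 0.05 or less, on the log2(value + 1) scale, and the Benjamini-Hochberg adjusted p over all 17568 expressed loci is given beside it. Of the 43 expressed members, 15 were higher and 8 were lower in THZ531, while among all expressed loci 39.5% were called, 15.7% as higher and 23.9% as lower. With an adjusted p up to 0.05, whatever the fold, 29 of the 43 members differed, against 68.6% of all loci. The 6 values separated into non-overlapping groups for 30 of 43 members (69.8%), close to the 71.7% of all loci. Their median log2 fold change was 0.38, against -0.01 for all loci. This median was 0.16 when libraries were scaled to the same total and -0.07 when they were scaled to RPL34, the ribosomal protein gene that served as the reference of the study's qPCR, which shifts every gene by -0.49. The same-total scaling shifts every gene by -0.24 and upper-quartile scaling by 0.12, so each fold change below is relative to the DESeq2 size factors of the deposited table. In bulk RNA, fewer cells of a kind and less RNA per cell cannot be told apart.

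The counts of the families are given apart, and the difference between them was not tested. Of the 11 expressed SOX genes, 6 were higher and none was lower, with a median log2 fold change of 0.87; under RPL34 scaling the counts were 2 and 1 and the median 0.37. At any fold, 1 SOX gene (SOX5) lay below 0 at an unadjusted limma p under 0.05, and edgeR and DESeq2 also called 0 SOX genes lower. Of the 32 forkhead genes, 9 were higher and 8 were lower, with a median of 0.25 that turned to -0.23 under RPL34 scaling, with 2 higher and 11 lower. Among all expressed loci RPL34 scaling gave 6.14% higher and 42.8% lower. Under all 4 scalings 4 genes were called higher (SOX4, SOX11, FOXC1 and FOXH1) and 5 lower (FOXD4, FOXE1, FOXN3, FOXP3 and FOXP4). FOXP3 reached the minimum through its DMSO libraries, which fixed its direction, so that it supports nothing among the lower genes. FOXK2, FOXA2, FOXO6 and SOX5, not called as deposited, were called lower under same-total and RPL34 scaling. In the other direction, FOXD1 (0.62), FOXA1 (0.64), FOXO3 (0.66) and SOX8 (1.54) were called higher under upper-quartile scaling, which gave 12 higher forkhead genes.

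**Figure D1:**
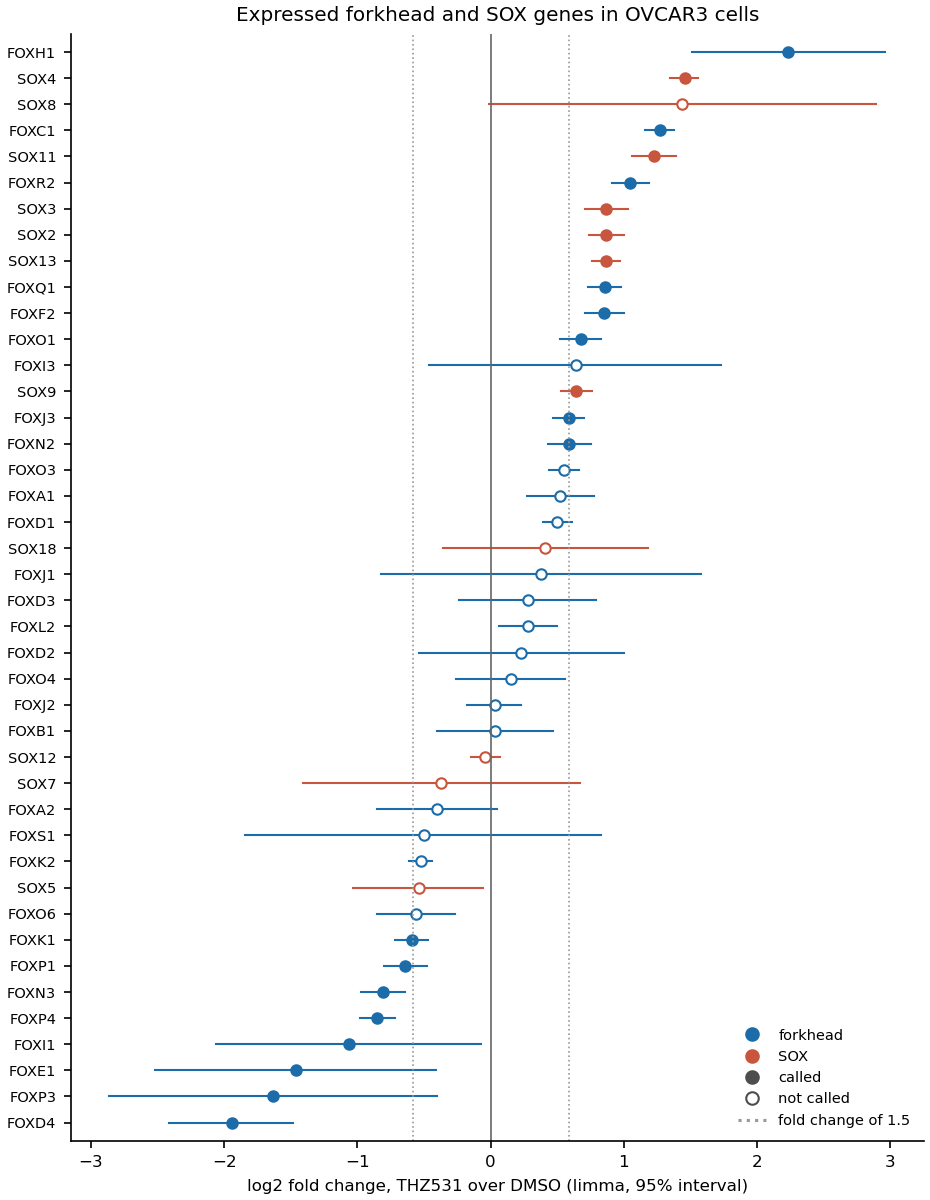
Log2 fold change of 42 expressed members (THZ531 over DMSO, deposited scaling) with its 95% interval from limma; filled points passed both thresholds, open points did not, and dotted lines mark a fold change of 1.5. Of the SOX genes 8 of 11 and of the forkhead genes shown 19 of 31 lie above 0, and the forkhead genes spread from FOXD4 at -1.94 to FOXH1 at 2.23.

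The promoters of 4 single-exon genes that rose, 2 from each family, are shown as the sequence in front of the genes that carry the changes below, from RefSeq (GRCh38.p14), as the 100 bases before the start, all 5′ to 3′ on the plus strand, which is that of the genes, with CCAAT or its reverse complement ATTGG in capitals.
SOX4 (chr6:21593651-21593750): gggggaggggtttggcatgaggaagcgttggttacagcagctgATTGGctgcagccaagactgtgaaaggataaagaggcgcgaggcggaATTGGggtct
SOX2 (chr3:181711825-181711924): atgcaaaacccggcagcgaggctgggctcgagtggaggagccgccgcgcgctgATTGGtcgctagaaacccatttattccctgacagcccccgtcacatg
FOXC1 (chr6:1609815-1609914): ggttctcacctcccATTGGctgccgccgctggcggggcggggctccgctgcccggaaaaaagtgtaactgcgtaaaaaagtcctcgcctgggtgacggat
FOXQ1 (chr6:1311998-1312097): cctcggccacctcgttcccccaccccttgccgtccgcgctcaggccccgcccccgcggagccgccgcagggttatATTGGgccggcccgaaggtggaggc
RefSeq promoters of 300 bases were matched for 32 of the 43 expressed members. CCAAT on either strand stood in 11 of the 32 (34.4%), and in 34.6% of all 35116 promoters of the table. The 4 printed promoters all hold it within the 100 bases shown. Those of SOX3 and FOXR2, single-exon genes that also rose, hold none in the 100 bases before the start. GGGCGG on either strand, the core of an SP1 site, stood in 24 of 32 (75.0%), against 45.0% of all. TATAAA on the gene's own strand was found in FOXP3 alone, against 7.33% of all. The forkhead consensus TGTTTAC stood in the promoters of SOX12 and FOXO4, against 3.42% of all, and the SOX core ACAAAG in SOX2, FOXA1, FOXD3 and FOXO3, against 16.1% of all, both searched on either strand. The median number of CG dinucleotides was 29 in the members and 14 over all promoters. It was 20 in members called higher and 29.5 in members called lower. The promoters of the table are not restricted to genes expressed in these cells, so these comparisons are not matched for expression. A match of letters is a description and not a bound site.

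The SOXC group, SOX4, SOX11 and SOX12, marks progenitor cells of the nervous system and mesenchyme, and it held the largest changes of the SOX family among genes with a mean of at least 50. SOX4 (hg38 chr6:21593751-21598619, 1 exon) had normalized reads of 4010.0, 4358 and 4148 in DMSO and 12053, 11783 and 10625 in THZ531. Every treated library lay far above the highest control. The log2 fold change was 1.46 ± 0.05 (SE, n = 3 per group), with an adjusted p of 9.4e-13 in limma. SOX11 (chr2:5692384-5701385, 1 exon) had 4151, 5389 and 5195 in DMSO and 12357, 11449 and 10551 in THZ531. Its lowest treated library was still above the highest control, the log2 fold change was 1.23 ± 0.08, and the adjusted p in limma was 9.4e-10. SOX12, the third gene of the group and equally a single exon (chr20:325552-330224), had means of 2282 and 2221 with overlapping libraries. Its log2 fold change of -0.04 ± 0.05 turned to 0.08 under upper-quartile scaling and did not pass the test.

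SOX2 and SOX3 form the SOXB1 group with SOX1, which keeps neural and pluripotent stem cells undifferentiated; SOX1 was at 0 in all libraries. SOX2 (chr3:181711925-181714436, 1 exon) had 2781, 3278 and 3330.4 in DMSO and 5966, 5672 and 5456 in THZ531. SOX3 (chrX:140502985-140505116, 1 exon) had 657, 599 and 614 in DMSO and 1156, 1200.4 and 1068 in THZ531. In neither gene did a treated library overlap a control. Both rose by a log2 of 0.87, with SE of 0.06 and 0.07 and adjusted p of 3.5e-09 and 3.6e-08 in limma. Scaled to RPL34, the log2 fold changes were 0.37 and 0.38 and neither gene was called.

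SOX9, a SOXE factor of cartilage, gonad and epithelial progenitors, was the most abundant SOX gene per length, at 1907 normalized reads per kb of transcript in DMSO. Its libraries (chr17:72121020-72126420, 3 exons) had 6854, 7409 and 8230.2 in DMSO and 11984, 11755 and 11309.7 in THZ531. The groups did not overlap, and the log2 fold change was 0.64 ± 0.05 with an adjusted p of 2.3e-08. The call was near the fold threshold: without DMSO replicate 1, the lowest control, the log2 fold change was 0.58 and the gene was no longer called. SOX8, its relative, was low (means 6.36 and 17.3, log2 fold change 1.44 ± 0.68, adjusted p 0.073 in limma). It was called higher by edgeR (1.45), under upper-quartile scaling (1.54), with a pseudocount of 10 (0.73) and without DMSO replicate 2 (1.93) or THZ531 replicate 1 (1.92), and its log2 fold change was 0.82 without DMSO replicate 3. SOX10 was at 0.

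The SOXD proteins lack a transactivation domain of their own. SOX13 (chr1:204073099-204127786, 14 exons) had 1983, 1873 and 1964 in DMSO and 3406, 3582 and 3631 in THZ531. Its treated libraries were all above the controls, with a log2 fold change of 0.87 ± 0.05 and an adjusted p of 2.9e-10. SOX5, the longest member at 1033 kb and 15 exons, had 137, 153 and 139 in DMSO and 129.7, 109 and 66.0 in THZ531, groups that did not overlap, and a log2 fold change of -0.54 ± 0.23 (adjusted p 0.045) that stayed under the fold threshold. SOX5 passed as lower without THZ531 replicate 1 (-0.74) or replicate 2 (-0.62), and its log2 fold change was -0.26 without THZ531 replicate 3. Of the SOXF genes of endothelial development, SOX7 had means of 22.5 and 19.2 and SOX18 of 41.2 and 51.7, with overlapping libraries and log2 fold changes of -0.37 ± 0.49 and 0.41 ± 0.36.

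Of the 9 forkhead genes that rose, 3 lie next to each other on the short arm of chromosome 6, within chr6:1312098-1613897. FOXC1 (chr6:1609915-1613897, 1 exon), a factor of mesenchyme and of the front of the eye, had 3189, 3542 and 3379 in DMSO and 8505, 8351 and 7523 in THZ531. FOXQ1 (chr6:1312098-1314758, 1 exon), known from hair and gastric mucous cells, had 972, 1038 and 963 in DMSO and 1767, 1827 and 1796 in THZ531. FOXF2 (chr6:1389576-1395603, 2 exons), a mesenchymal factor of gut and palate, had 706, 669 and 634 in DMSO and 1213, 1228 and 1192 in THZ531. In each of the 3 genes all treated libraries lay above all controls. The log2 fold changes were 1.27 ± 0.05 for FOXC1, 0.86 ± 0.06 for FOXQ1 and 0.85 ± 0.07 for FOXF2. Their adjusted p-values (limma) were 7.6e-12, 2.8e-09 and 2e-08. FOXCUT, a non-coding gene that ends 2557 bases before FOXC1 starts, had means of 14.7 and 6.57, overlapping libraries and no call, so the 3 coding genes were the only expressed loci called in the interval. Under RPL34 scaling FOXC1 alone of the 3 was called.

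Other forkhead genes with a mean of at least 50 that rose were FOXR2, FOXJ3, FOXN2 and FOXO1, the last described with its branch. FOXR2 (chrX:55623400-55626192, 1 exon), normally restricted to testis and known as an oncogene, had 1451, 1565 and 1725 in DMSO and 3391, 3404 and 3027 in THZ531. The groups were far apart (log2 fold change 1.05 ± 0.07, adjusted p 9.3e-10 in limma). FOXJ3 (chr1:42176536-42335880, 13 exons) had 1624, 1589 and 1756 in DMSO and 2476, 2496 and 2478 in THZ531. FOXN2 (chr2:48314299-48379295, 7 exons) had 1602, 1892 and 2021 in DMSO and 2932, 2727 and 2605 in THZ531. Both were higher in every treated library, at log2 fold changes of 0.59 ± 0.05 and 0.59 ± 0.07 that sit at the fold threshold of 1.5. Without DMSO replicate 1, FOXJ3 (0.57) and FOXN2 (0.49) were no longer called, nor was FOXJ3 without DMSO replicate 2 (0.56) or THZ531 replicate 2 (0.58), nor FOXN2 without THZ531 replicate 1 (0.54); neither edgeR nor DESeq2 called FOXJ3 or FOXN2. FOXH1, the SMAD partner of nodal and activin signalling, was low but had the largest fold of all members: 15.1, 12.1 and 10.4 in DMSO and 64.2, 62.5 and 59.2 in THZ531, groups with no overlap, a log2 fold change of 2.23 ± 0.34 and an adjusted p of 2.5e-05 in limma. It overlaps KIFC2 (means 1024 and 928, not called), and since the strand setting of the authors' counting is not given in the sources used here, reads of the overlap cannot be assigned.

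Of the 8 forkhead genes that fell, 5 have 4 or more exons. FOXP4 and FOXP1 are leucine-zipper repressors of lung and lymphocyte development. FOXP4 (chr6:41546381-41602384, 17 exons) had 3778, 3915 and 3535 in DMSO and 1906, 2077 and 2241 in THZ531. FOXP1 (chr3:70954708-71583978, 21 exons, 629 kb) had 1095, 1148 and 1166 in DMSO and 744, 665 and 775 in THZ531. Every treated library was below every control in both genes. The log2 fold changes were -0.85 ± 0.06 (adjusted p 3.6e-09) and -0.64 ± 0.08 (adjusted p 1.2e-06) in limma, and FOXP1 lost its call without THZ531 replicate 2, at -0.58. FOXP3, the regulatory T cell factor, was near the detection minimum and had 17.5, 20.4 and 24.7 in DMSO and 7.56, 2.27 and 11.4 in THZ531. It passed through the DMSO libraries, since only 1 treated library reached 10, and its direction was fixed by that. Its log2 fold change of -1.63 ± 0.58 was -1.07 without THZ531 replicate 2, and it overlaps the far more abundant CCDC22 (means 1909.8 and 1990.1). FOXN3 (chr14:89156177-89619165, 6 exons, 463 kb), a checkpoint repressor, had 1511, 1667 and 1597 in DMSO and 811, 1000.3 and 922 in THZ531. The groups were well apart (log2 fold change -0.81 ± 0.08, adjusted p 1.2e-07 in limma).

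FOXK1 and FOXK2, repressors of starvation and autophagy genes that work with SIN3 and BAP1 complexes, were lower in every treated library. FOXK2 (chr17:82519715-82604602, 9 exons) was the most abundant forkhead gene per length in DMSO, at 1681 reads per kb, and had 1168 in THZ531, below FOXC1, FOXD1 and FOXR2. Its libraries had 8479.6, 9113 and 8848 in DMSO and 6169, 5943 and 6266 in THZ531. The log2 fold change of -0.52 ± 0.04 (adjusted p 9.8e-09) stayed under the fold threshold as deposited, but passed it as lower under same-total (-0.77) and RPL34 scaling (-1.02). FOXK1 (chr7:4682295-4771443, 9 exons) had 2315, 2558 and 2599.5 in DMSO and 1698, 1654 and 1590.5 in THZ531. It just passed, at -0.59 ± 0.06 (adjusted p 1.4e-07 in limma), but not without DMSO replicate 2 (-0.57) or 3 (-0.56) or THZ531 replicate 3 (-0.57).

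FOXD4 (chr9:116056-118419, 1 exon) showed the largest fall, with 166, 236 and 185 in DMSO and 41.6, 47.7 and 61.4 in THZ531. The highest treated library was under the lowest control (log2 fold change -1.94 ± 0.22, adjusted p 8.1e-07 in limma). FOXD4 has near-identical copies among which reads can be split, so its value is uncertain; of these copies FOXD4L1 (means 63.8 and 11.4) was also called lower, FOXD4L4 (22.9 and 2.65) passed the minimum through the DMSO libraries alone, which fixed its direction, FOXD4L6 (11.2 and 4.25) was not, and FOXD4L3 and FOXD4L5 did not reach the minimum. Low genes called lower were FOXE1, a thyroid factor (30.2, 40.8 and 24.7 in DMSO and 5.04, 20.5 and 11.4 in THZ531; log2 fold change -1.46 ± 0.50), and FOXI1, a factor of ionocytes (54.8, 17.6 and 27.9 in DMSO and 10.1, 19.3 and 13.7 in THZ531; -1.06 ± 0.47). FOXE1 was not called without DMSO replicate 2 (-1.27). The FOXI1 libraries overlapped, its adjusted p was 0.055 in limma, and it was not called without DMSO replicate 1 (-0.64) or 3 (-1.11) or without THZ531 replicate 1 (-0.85) or 3 (-1.05).

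**Figure D2:**
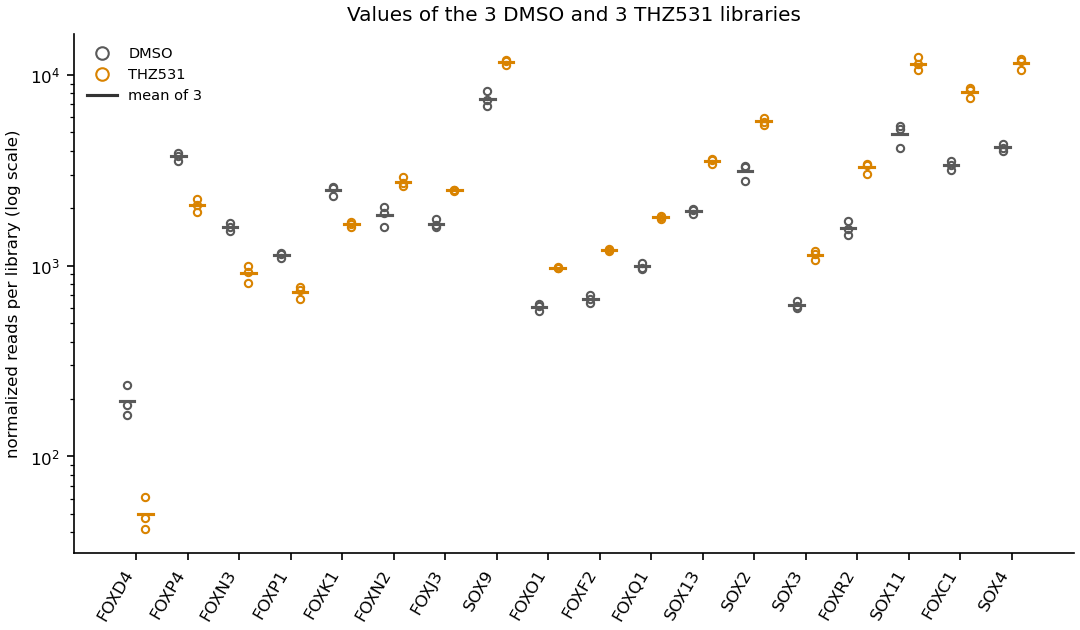
Normalized reads on a log axis of 18 called members with a mean of at least 50, ordered from the largest fall to the largest rise; circles are single libraries (grey DMSO, orange THZ531) and bars the mean of 3. In each of these genes the 3 treated libraries lie on 1 side of the 3 controls, and the log2 fold change is smallest in size for FOXJ3, FOXN2 and FOXK1.

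In the FOXO branch, which answers to insulin and growth factor signals, 1 of 4 members passed both thresholds. FOXO1 (chr13:40555667-40667053) had 632, 579.9 and 614 in DMSO and 972, 979.8 and 972 in THZ531. FOXO3 (chr6:108559825-108684774) had 1574, 1581 and 1546 in DMSO and 2258, 2223 and 2400.5 in THZ531. Both were higher in every treated library, with log2 fold changes of 0.68 ± 0.07 (adjusted p 4.6e-07) and 0.55 ± 0.05 (adjusted p 1.4e-07) in limma, and FOXO1 alone passed the fold threshold. FOXO1 lost its call under same-total (0.44) and RPL34 scaling (0.19), and FOXO3 was called higher under upper-quartile scaling (0.66). FOXO4 (chrX:71095851-71103534) had 110.4, 100.2 and 110.1 in DMSO and 112, 102 and 146 in THZ531, which overlapped (0.15 ± 0.19). FOXO6 (chr1:41361434-41383590) had 294, 362 and 283 in DMSO and 230.5, 215 and 189 in THZ531, lower in every treated library but under the fold threshold (-0.56 ± 0.14, adjusted p 0.0018 in limma). FOXO6 was called lower by edgeR (-0.59) and when DMSO replicate 1 (-0.60), DMSO replicate 3 (-0.63) or THZ531 replicate 1 (-0.62) was left out. The locus of FOXO3B, a pseudogene that resembles FOXO3, is joined with ZNF286B in the table and had means of 159 and 128 and no call.

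Of 34 genes that control FOXO proteins (among them the PI3K-AKT and SGK kinases, the 14-3-3 proteins, the exporter XPO1, ubiquitin ligases and acetylation enzymes), 32 were expressed, 7 were higher and 2 lower, with a median log2 fold change of 0.33. These are 21.9% and 6.25% of the list, where 15.7% of all expressed loci were higher and 23.9% lower. The difference was not tested. The largest rises were in SGK1, a FOXO kinase, from a mean of 312 to 1336 (log2 fold change 2.09 ± 0.08), SIRT1, a FOXO deacetylase, from 1145 to 2719.8 (1.25 ± 0.05), and SFN, the 14-3-3σ protein, from 6288 to 13169.9 (1.07 ± 0.04). Those that fell were PIK3CD, a catalytic PI3K subunit, from 2088 to 1029 (-1.02 ± 0.07), and the kinase gene MAPK9, from 1152 to 762 (-0.60 ± 0.07). MAPK9 was not called without DMSO replicate 1 (-0.58) or THZ531 replicate 1 (-0.56). AKT1 (7089 and 7277) was not called, nor was AKT2 (27269.7 and 35523). The 5 genes named for their change had groups that did not overlap, as in 71.7% of all expressed loci. Under RPL34 scaling the counts of this list turned to 2 higher and 9 lower of the 32, where 6.14% of all expressed loci were higher and 42.8% lower.

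Of 32 textbook targets of FOXO factors, 27 were expressed, 9 were higher and none was lower, with a median log2 fold change of 0.50. Among all expressed loci 15.7% were higher and 23.9% lower, and the difference from the list was not tested. For the targets edgeR and DESeq2 gave the same counts, and 6 targets lay below 0 at an unadjusted limma p under 0.05 at any fold. BCL6, a repressor, went from 888 to 2496 (log2 fold change 1.49 ± 0.06), CITED2, a co-regulator of EP300, from 9623 to 21649.7 (1.17 ± 0.04), and BCL2L11, the death gene that encodes BIM, from 2554 to 5714 (1.16 ± 0.05). In the 3 genes every treated library was above every control, while 71.7% of all expressed loci had groups without overlap in either direction. Other members of the list that rose were BBC3, TXNIP, CDKN1A, SESN2, MXI1 and SOD2, whose locus is joined with SOD2-OT1. Targets used in other tissues, TRIM63, G6PC1 and PCK1, were at 0. The counts depended on scaling: 14 were higher under upper-quartile scaling, and under RPL34 scaling 3 were higher and 8 lower. Among all expressed loci 20.6% were higher under upper-quartile scaling, and 6.14% were higher and 42.8% lower under RPL34 scaling. FOXO activity is set after translation and was not measured here.

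Among the other expressed forkhead genes, 3 passed an adjusted p of 0.05 but not the fold threshold. These were FOXA1, a pioneer factor of endoderm and hormone-responsive epithelium (means 220.4 and 317, log2 fold change 0.52 ± 0.12), FOXD1, a factor of kidney stroma (2887 and 4089, 0.50 ± 0.05), and FOXL2, the factor of granulosa cell identity in the ovary (443 and 541, 0.28 ± 0.10). FOXL2 turned to -0.21 under RPL34 scaling. The others did not differ at that threshold. FOXA2 had means of 115 and 85.0 (-0.40 ± 0.21) and was called lower under same-total (-0.64) and RPL34 scaling (-0.89). FOXB1 had means of 144 and 144 (0.03 ± 0.20) and FOXJ2 of 502 and 510.3 (0.03 ± 0.10). FOXD2 had 32.0 and 35.8 (0.23 ± 0.36) and FOXD3, of the neural crest, 62.8 and 76.1 (0.28 ± 0.24). FOXJ1, the master factor of motile cilia in tubal epithelium, was close to the minimum at 9.91 and 14.7 (0.38 ± 0.57), as were FOXI3 at 12.6 and 20.9 (0.64 ± 0.51) and FOXS1 at 10.1 and 7.33 (-0.50 ± 0.63).

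The minimum itself separated neighbours by little. Just inside were FOXS1, with 6.35, 11.1 and 12.8 in DMSO and 3.78, 5.68 and 12.5 in THZ531, and SOX8, with 6.35, 11.1 and 1.60 in DMSO and 7.56, 21.6 and 22.8 in THZ531. Just outside was SOX15, with 3.97, 8.35 and 7.18 in DMSO and 5.04, 17.1 and 28.4 in THZ531, and SOX6, SOX30, FOXA3, FOXN4, FOXE3, SOX21, FOXN1 and FOXP2 were also below it. The genes at 0 in every library were FOXB2, FOXC2, FOXF1, FOXI2, FOXL1, FOXL3, FOXR1, SOX1, SOX10 and SOX14. At these depths, with 53054048 to 70986130 reads counted on genes per library, a gene at 0 may still have up to 3 reads per library by counting error.

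Related genes were also set against each other within each library, as the log2 ratio of value + 1, in reads not corrected for length. Apart from the added 1, which weighs on genes of few reads, such a ratio does not depend on how libraries are scaled. All 29 pairs of expressed members of the same forkhead letter or SOX group were compared with a two-sided exact permutation test, in which 3 against 3 libraries allow no p under 0.1; 18 pairs reached 0.1 (adjusted over 29 pairs, 0.161), and in these 18 the groups did not overlap, so that no pair passed a threshold of 0.05. The values are therefore a description; of single loci, 71.7% did not overlap. The log2 ratio of SOX4 to SOX12 went from 0.87 ± 0.06 in DMSO to 2.37 ± 0.12 in THZ531 (SD, n = 3), and that of SOX11 to SOX12 from 1.10 ± 0.21 to 2.36 ± 0.15. FOXN2 to FOXN3 went from 0.20 ± 0.13 to 1.60 ± 0.22. FOXO1 to FOXO6 went from 0.96 ± 0.25 to 2.20 ± 0.14, and SOX5 to SOX13 from -3.75 ± 0.13 to -5.16 ± 0.54. FOXJ2 to FOXJ3 shifted less, from -1.72 ± 0.10 to -2.28 ± 0.09. In other pairs the groups overlapped. SOX2 to SOX3 was 2.32 in both groups (SD 0.21 and 0.07, exact p = 1.0), and FOXK1 to FOXK2 was -1.82 ± 0.05 and -1.89 ± 0.07 (exact p = 0.3). Smaller differences without overlap were 0.23 for SOX4 to SOX11 and 0.13 for FOXO1 to FOXO3.

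**Figure D3:**
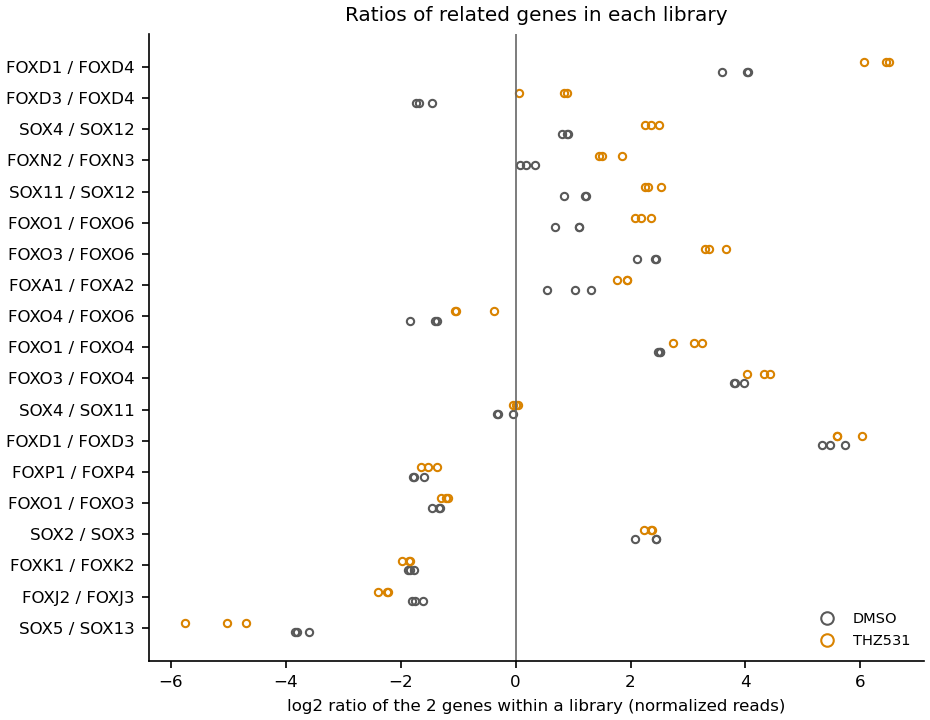
Log2 ratio of 2 related genes in each library, for the 19 pairs in which both genes have a mean of at least 50 in both groups (grey DMSO, orange THZ531, ordered by the difference). The groups do not overlap in 15 of the 19 pairs; SOX4 to SOX12, SOX11 to SOX12 and FOXN2 to FOXN3 shift to the right, SOX5 to SOX13 to the left, and the groups overlap for SOX2 to SOX3 and FOXK1 to FOXK2.

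The composition of each family by transcripts per length is given as a description. Among SOX genes, SOX9 made up 32.5% ± 1.36 of the normalized reads per kb in DMSO and 27.5% ± 0.313 in THZ531 (SD, n = 3), SOX4 went from 14.6% ± 0.673 to 21.8% ± 0.586, SOX12 from 8.34% ± 0.654 to 4.40% ± 0.270, and SOX2 was at 21.2% ± 0.837 and 21.0% ± 0.310. The sum over SOX genes was 5871 ± 357 and 10817 ± 435 reads per kb. Among forkhead genes, FOXK2 led in DMSO with 19.9% ± 0.222 and had 10.6% ± 0.407 in THZ531, where FOXC1 led with 18.5% ± 0.971 against 10.0% ± 0.255 in DMSO. FOXD1 was at 13.6% ± 0.391 and 14.8% ± 0.875. The libraries of the 2 groups did not overlap in these shares for SOX9, SOX4, SOX12, FOXK2 and FOXC1.

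The number of exons and the length of the gene were set beside the fold change, since the study compared gene and intron lengths between regulated classes. Exon counts are those of the MANE transcript or, without one, the longest transcript in GENCODE v44. Of the 16 members with 1 exon, 8 were higher and 2 lower (median log2 fold change 0.55), and of 314 other expressed protein-coding genes with 1 exon 33.4% were higher and 22.6% lower (median 0.21). Of the 16 members with 2 or 3 exons, 4 were higher and 1 lower (median 0.47), and of 1436 other such genes 18.0% were higher and 27.4% lower (median -0.02). Of the 11 members with 4 or more exons, 3 were higher (FOXJ3, FOXN2 and SOX13) and 5 lower (FOXK1, FOXN3, FOXP1, FOXP3 and FOXP4), with a median of -0.54, where the direction of FOXP3 was fixed by the minimum; of the 11519 other such genes 11.5% were higher and 22.4% lower (median -0.01). Under RPL34 scaling the medians of the 3 classes of members were 0.06, -0.02 and -1.03, in the same order. The counts of higher and lower members were then 3 and 2 with 1 exon, 1 and 3 with 2 or 3 exons, and 0 and 7 with 4 or more exons. Across the 43 members Spearman's rho of the log2 fold change with the number of exons was -0.27 and with the genomic span -0.20; over the 32 members with a mean of at least 50 it was -0.46 and -0.34. These are descriptions across genes of the same libraries. FOXJ3 (159 kb), FOXO1 (111 kb) and FOXO3 (125 kb) are long genes with positive values.

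**Figure D4:**
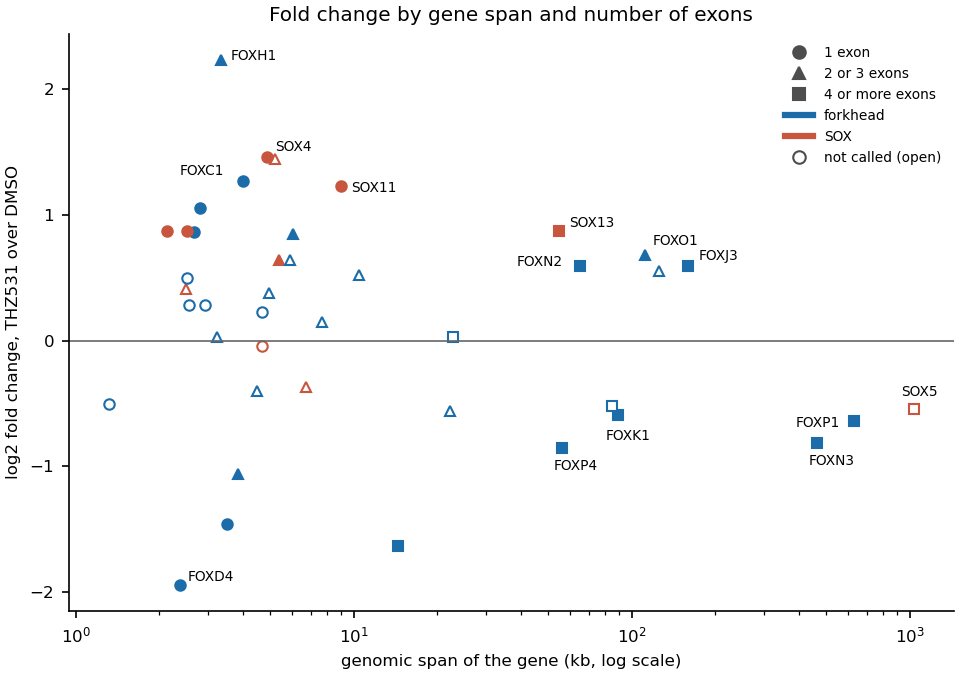
Log2 fold change (THZ531 over DMSO) of 42 expressed members against genomic span in kb on a log axis; circles have 1 exon, triangles 2 or 3 and squares 4 or more, blue is forkhead, red SOX, and open symbols were not called. Most called genes under 10 kb lie above 0 (10 higher, 3 lower of the 27 shown), while the squares fall on both sides, with FOXP4, FOXN3, FOXP1 and FOXK1 below 0 and SOX13, FOXJ3 and FOXN2 above it.

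The table also holds loci without a symbol, and 39 of them lie inside an expressed member. Only 4 of the 39 reached the minimum, in introns of FOXK1, FOXK2 and FOXP1, and all 4 were called higher in THZ531. Among all 17568 expressed loci 15.7% were called higher, and among the 15278 with a symbol 13.3%. The share was thus larger among unnamed loci in general, and the rise is not shown to be particular to these members. Of the 4 loci, 3 had no DMSO library at 10 and passed the minimum through the THZ531 libraries alone, so their direction was fixed by the minimum and their values are a description. The table gives no strand for such loci. In intron 4 of FOXK2 a locus at chr17:82574977-82577162, 3107 to 5292 bases after the 5′ splice site, had 15.9, 24.1 and 17.6 reads in DMSO and 248, 367 and 267 in THZ531. Every treated library was far above the highest control (log2 fold change 3.87 ± 0.25, adjusted p 1.1e-09 in limma), while FOXK2 itself was lower in each treated library. In intron 1 of FOXK1 a locus at chr7:4685144-4688266, 2276 to 5398 bases after the 5′ splice site, was at 0 in all DMSO libraries and had 20.2, 31.8 and 38.7 in THZ531. Against a floor of 3 reads per library this is at least 12.0-fold higher. The other 2 loci were lower in level: chr17:82587953-82587979 in intron 8 of FOXK2 (means 4.51 and 27.4) and chr3:71570287-71574457 in intron 2 of FOXP1 (4.95 and 21.3), with log2 fold changes of 2.39 and 1.89. The 3 host genes had lower values in every treated library. No expressed unnamed locus lay inside a member called higher, but only 7 of those 15 members have an intron. A locus inside FOXJ3, a member called higher, had means of 1.15 and 12.5 and stayed below the minimum. These counts therefore give no contrast between hosts.

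To show where these loci lie, the 5′ splice sites of the introns that hold them are printed from hg38, 20 bases of exon and 20 of intron, with the GT at the start of the intron in capitals, each 5′ to 3′ on the strand of its gene.
FOXK1 intron 1 (chr7:4682849-4682888, plus strand): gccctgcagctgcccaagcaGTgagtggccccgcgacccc
FOXK2 intron 4 (chr17:82571851-82571890, plus strand): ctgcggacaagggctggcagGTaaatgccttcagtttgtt
FOXK2 intron 8 (chr17:82587253-82587292, plus strand): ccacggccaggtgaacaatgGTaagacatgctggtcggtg
FOXP1 intron 2 (chr3:71581529-71581568, minus strand): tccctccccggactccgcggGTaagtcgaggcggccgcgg
Within the loci the polyadenylation signal AATAAA was searched on the strand of the host gene. The FOXP1 locus holds 5, with 7 upstream of it in the same intron. The FOXK2 loci hold none, with 1 upstream of the larger locus in the same intron. The FOXP1 signal nearest the end of the locus is shown with 20 bases on each side and the signal in capitals.
FOXP1 intron 2 (chr3:71571032-71571077, minus strand): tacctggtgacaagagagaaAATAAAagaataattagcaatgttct
The AATAAA hexamer is frequent in introns, with a median of 0.697 per kb over the other expressed protein-coding genes with an intron and 0.311 per kb over the 27 members with one. Among genes with 4 or more exons, as the host genes have, the medians were 0.717 per kb in the others and 0.583 per kb in the members. A match is therefore a description of the sequence and not a site of cleavage.

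Some neighbours of members, antisense transcripts among them, were called, and are given beside their members. Most expressed neighbours, such as ETNK2, RNF157, PPP1R16A and CBWD1, were not called, and among all expressed loci 39.5% were called. SOX2 lies inside the span of SOX2-OT, a long non-coding gene, which had 47.6, 61.2 and 62.2 in DMSO and 8.82, 13.6 and 7.96 in THZ531. SOX2-OT had a log2 fold change of -2.41 ± 0.38. It reached the minimum through its DMSO libraries, which fixed its direction, so its values are a description and are not set against those of SOX2. NRSN2-AS1, at 300 bases from the start of SOX12, had 105, 102 and 103 in DMSO and 20.2, 35.2 and 38.7 in THZ531 (log2 fold change -1.74 ± 0.28), next to a SOX12 that was not called. FOXL2NB, whose start region faces that of FOXL2 at 77 bases, had means of 171 and 90.9 (-0.91), and AP5Z1, downstream of FOXK1 and called lower like it, 207 and 96.1 (-1.13). PPP1R3F, at 4967 bases from the start of FOXP3, had means of 87.8 and 40.8 (-1.10, adjusted p 0.0011 in limma). FOXD3-AS1, which overlaps FOXD3, was the only one of the antisense genes named here that was called higher (57.0 and 92.3, log2 fold change 0.67), and not without DMSO replicate 2 (0.58) or THZ531 replicate 1 (0.52). FOXD2-AS1, FOXN3-AS1 and SOX9-AS1 were expressed and not called. Reads from such overlaps cannot be assigned to a strand here.

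Partners of SOX proteins and of the TCF/LEF branch were listed as 20 genes, of which 16 were expressed, 7 higher and 2 lower, with a median log2 fold change of 0.72. Among all expressed loci 15.7% were higher and 23.9% lower, and the difference from the list was not tested. TLE4 and TLE3, Groucho co-repressors, went from 863 to 2034 (log2 fold change 1.24 ± 0.07) and from 6049 to 14226 (1.23 ± 0.03), with no overlap between groups. POU3F1 had 0, 0 and 3.19 in DMSO and 25.2, 18.2 and 15.9 in THZ531, few reads whose fitted fold depends on the pseudocount; it passed the minimum through the THZ531 libraries alone, so its direction, counted among the 7, was fixed by the minimum. POU2F1, TLE1, CTNNB1 (β-catenin) and PAX6, a partner of SOX2 in eye and brain, were also higher. Those that fell were POU2F2, from 42.9 to 16.6 (-1.35 ± 0.37), and TCF7L1, a repressor of the pathway, from 577 to 299 (-0.96 ± 0.12). POU5F1, the partner of SOX2 in pluripotent cells, was low and not called (19.7 and 15.8), and NANOG was below the minimum. Under RPL34 scaling 3 were higher and 3 lower of the 16, where 6.14% of all expressed loci were higher and 42.8% lower.

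The identity of the cells was checked with markers. All 9 markers of ovarian carcinoma cells were expressed, led by the keratin KRT8 (means 153783 and 230529), and PAX8, the Müllerian lineage factor, was the only one called lower (11272 and 1241). Of 7 fibroblast markers 4 reached the minimum, with a sum of 1812, 1739 and 1994 in DMSO and 3432, 3597 and 3269 in THZ531, mostly COL1A1 (995 and 2190.4) and COL3A1 (724 and 1080.1), which were both called higher, while DCN and LUM were near 0 in DMSO and at 0 in THZ531. The leukocyte list had sums from 138 to 179, with CD14 the most abundant and CD3E at 0. The endothelial list had sums from 231 to 286 in DMSO and 308 to 419.8 in THZ531, led by VWF (89.0 and 144), and VWF and KDR were called higher. All libraries come from a single cell line, so these marker transcripts do not show that fibroblasts, leukocytes or endothelial cells were present. FOXC1, FOXF2 and SOX4 are also known from mesenchymal or endothelial cells, and a relation of their change to these markers was not tested.

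**Figure D5:**
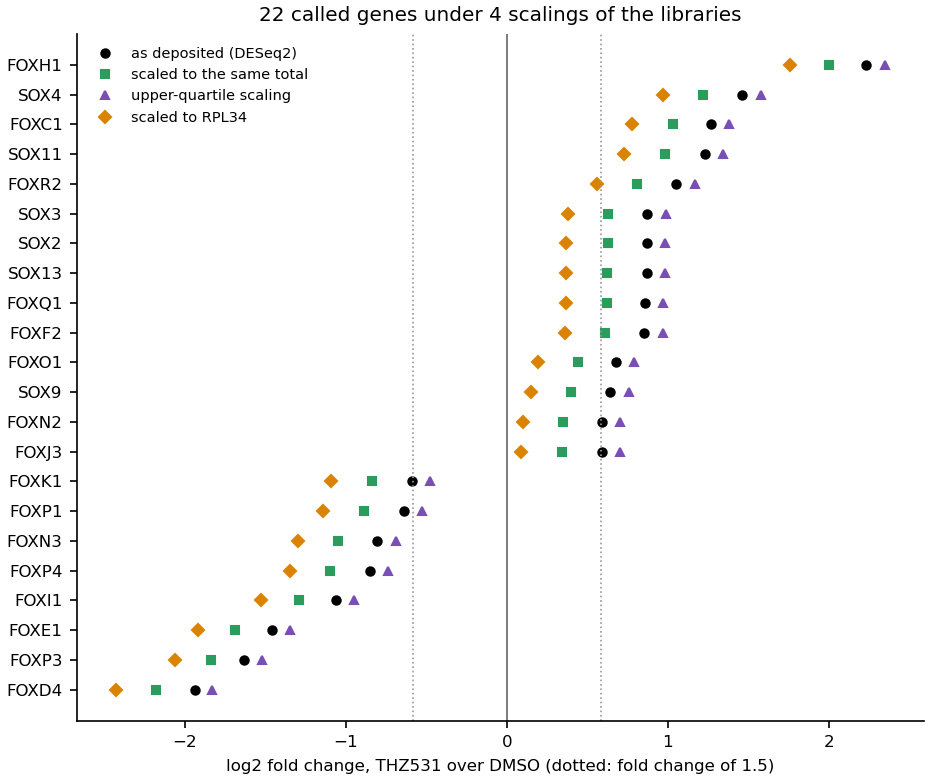
Log2 fold change (THZ531 over DMSO) of 22 called members under 4 scalings of the libraries; dotted lines mark a fold change of 1.5. The 14 genes called higher that are shown stay above 0 under all 4, but under RPL34 scaling only FOXH1, SOX4, FOXC1 and SOX11 pass the line and the test, while the 8 genes called lower pass under all scalings but upper-quartile, which keeps 5 of them.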

How the data were processed

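Polyadenylated RNA of OVCAR3 cells was sequenced from 3 DMSO and 3 THZ531 libraries. Per the submitters' processing notes and the methods, the authors aligned reads to hg38 with STAR (2.7.5a in the processing notes; the methods name another version), ran featureCounts on FAST DB genes, and deposited a signal, the count divided by the DESeq2 size factor; the strand setting of the counting is not given in the sources used here. Of the values above 0, 100% were whole reads after multiplication by the size factor (tolerance 0.05), which gave 53054048 to 70986130 reads on genes per library. Intervals, SDs and floors that rest on single libraries cover counting or library error only.

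The 17568 loci that reached 10 in 3 or more libraries were fitted with limma 3.58.1 (R 4.3.3, trended variance) on log2(value + 1), and called at a 1.5-fold difference and a p of 0.05 or less, the thresholds of the study, whose DESeq2 was replaced because the deposited values are normalized. edgeR 4.0.16 and DESeq2 1.42.0 on the recovered reads, other pseudocounts, minimums, scalings, thresholds and variance models, a replicate block and leaving out each library were alternatives. Scripts were tested on simulated data.

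Expressed members were named; values per library were given for called members with a mean of at least 50, for FOXO genes and for the most abundant member of each family; of each list, up to 3 called genes per direction were named with values, and loci inside introns were named at a mean of at least 50. The 3 weaker intronic loci, the chromosome 6 neighbours and the antisense genes were chosen after their values were seen. The members and lists were chosen with earlier results of these data known. A few genes of these families and lists, and a sequence, are not reported here; expressed ones among the 43 members enter the counts and not the figures. Gene structures came from GENCODE v44 and sequences from hg38 and RefSeq (GRCh38.p14).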

Additional observations from a re-analysis of the deposited data

How the results depend on the processing

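Counts of called genes depended most on scaling and on the fold threshold. With libraries scaled to the same total, 5 forkhead genes were higher (9 as deposited), 1 SOX gene was lower (0), FOXO regulators gave 4 higher and 5 lower (7 and 2), 5 FOXO targets were lower (0) and 4 SOX partners were higher (7). Scaled to RPL34, 2 forkhead and 2 SOX genes were higher (9 and 6) and 1 SOX gene lower, FOXO regulators gave 2 higher and 9 lower, FOXO targets 3 higher and 8 lower (9 and 0), and 3 SOX partners were higher. Upper-quartile scaling gave 5 lower forkhead genes (8), 1 lower FOXO regulator and 14 higher FOXO targets. Of all calls across the 17568 loci, 60.4% were lower as deposited, 77.3% with the same total, 50.2% with upper-quartile and 87.5% with RPL34 scaling. At a fold change of at least 2, forkhead genes gave 3 higher and 4 lower, SOX genes 2 higher, FOXO regulators 3 higher and 1 lower, FOXO targets 4 higher, and SOX partners 3 higher and 1 lower. A minimum of 50 left 5 lower forkhead genes and 1 lower SOX partner, as fewer genes were tested.

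With single libraries left out, higher forkhead genes ranged from 6 to 9, lower ones from 6 to 8, higher SOX genes from 5 to 7, lower SOX genes from 0 to 1, lower FOXO regulators from 1 to 2, higher FOXO targets from 9 to 10, and SOX partners from 7 to 9 higher and 2 to 3 lower.

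Signs turned only in genes that were not called higher or lower. With the same total these were FOXD2 (-0.01), FOXJ2 (-0.22), FOXB1 (-0.21) and FOXO4 (-0.09), and with RPL34 FOXD2 (-0.25), FOXD3 (-0.21), FOXJ2 (-0.47), FOXB1 (-0.46), FOXJ1 (-0.07), SOX18 (-0.07), FOXL2 (-0.21) and FOXO4 (-0.34). Upper-quartile scaling turned SOX12 (0.08) and edgeR FOXB1 (-0.02). With single libraries left out, FOXJ2 ranged from -0.05 to 0.07, FOXB1 from -0.20 to 0.20, FOXJ1 from -0.10 to 0.70, SOX18 from -0.02 to 0.63 and SOX7 from -0.63 to 0.17. Apart from the scalings' own shifts, the cause was not tested. edgeR called 22 members and DESeq2 21, of which 20 and 21 were shared with the 23 of limma; over all loci edgeR on the recovered reads called 2582 higher and 4281 lower, against 2751 and 4197.

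Same-numbered libraries did not deviate together over all expressed loci (correlations of 0.002, 0.019 and -0.039), and libraries of unlike numbers gave -0.03 to 0.028. This check gave no sign of pairing by number, but it could miss a small shared effect. With the replicate block 7 forkhead genes were lower instead of 8 (FOXI1 lost its call). The other counts, 9 higher forkhead and 6 higher SOX genes among them, did not change. Low genes such as FOXP3, FOXE1, FOXI1 and SOX8 are limited by their read numbers.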

Other observations

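FOXA3, a forkhead gene of liver and gut that did not reach the minimum in 3 libraries, had 7.94, 11.1 and 9.57 normalized reads in DMSO (34 reads in all) and 0 in each THZ531 library. Against a floor of 3 reads per library this is at least 2.7-fold lower. A single library reached 10, so it entered no test.

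Below the minimum, an unnamed locus in an intron of FOXN3 was at 0 in DMSO and had 5.04, 9.09 and 4.55 in THZ531, at least 2.47-fold higher against the same floor. An unnamed locus within FOXJ3 (chr1:42299381-42302121) had 0, 1.86 and 1.60 in DMSO and 22.7, 6.82 and 7.96 in THZ531. An unnamed locus within FOXP4 (chr6:41549253-41549416) was at 0 in DMSO and had 2.52, 7.96 and 6.83 in THZ531. In the other direction, an unnamed locus within FOXK2 (chr17:82602984-82604178) had 11.9, 6.50 and 9.57 in DMSO and 0, 5.68 and 0 in THZ531. These 4 loci are named because their groups did not overlap, and they entered no test. Of the 39 unnamed loci inside expressed members, most had few or no reads and overlapping groups. The 71.7% without overlap was taken over expressed loci, and is no background for loci below the minimum. Another unnamed locus without overlap, inside SOX13 (chr1:204079934-204079953), was at 0 in DMSO and had 1.26, 1.14 and 1.14 in THZ531.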
